A study of Mus musculus with 12 samples.

Results

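The genes described here encode 7 lysosomal cathepsins (Ctsa, Ctsb, Ctsd, Ctsh, Ctsl, Ctss and Ctsz) and 3 lysosomal membrane glycoproteins (Lamp1, Lamp2 and Cd68). The rule takes them by symbol, without using a measured value, and all 10 were found among the 31053 genes listed in the count matrices. The 12 libraries came from 12 mice (C57BL/6J, male, about 90 days old, whole brain), and live CD45+/CD11b+ myeloid cells were sorted before droplet 3′ single-cell RNA-seq. Each of 4 preparations had 3 libraries. DNC-NONE was cold Dounce homogenisation without inhibitors, and DNC-INHIB the same with actinomycin D and triptolide (transcription inhibitors) and anisomycin (a translation inhibitor). ENZ-NONE was warm enzymatic digestion without inhibitors, and ENZ-INHIB the same digestion with the inhibitors. The labels name no transgene or other allele, and all libraries shared the sort, so the cells are those that kept both surface proteins through the preparation. The labels also put the libraries in 2 batches of 6, each holding libraries of all 4 preparations, without saying what a batch was. DNC-NONE and ENZ-NONE had 2 libraries in batch 1 and 1 in batch 2. DNC-INHIB and ENZ-INHIB had 1 in batch 1 and 2 in batch 2, so inhibitors and batch were not balanced.

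After cells with fewer than 500 genes, fewer than 1000 unique molecular identifiers (UMIs) or more than 10% mitochondrial UMIs were left out, 18830 of 28426 deposited cells remained, 855 to 2185 per library, with 1062871 to 3233159 UMIs per library and a median of 1153 to 1572 UMIs per cell. Pairs of libraries shared 2 to 16 cell barcodes. The summed level of 10 microglial marker genes was 19818 to 24455 counts-per-million units (CPM, UMIs of a gene scaled to the library's total) across libraries, while 6 neuronal markers summed to 0 to 10.3 CPM, 6 astrocyte markers to 147 to 247 CPM and 5 red cell genes to 0 to 2.34 CPM. In DNC-NONE replicate 3, 10 neutrophil markers summed to 4189 CPM. In DNC-NONE replicate 1, 15.5% of microglia carried immediate early genes, against 1.33 to 3.55% in the other libraries outside ENZ-NONE. With either library left out, 0 of the 10 genes passed the test between any 2 preparations.

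Lysosomes are the acidic compartments in which macrophages degrade what they engulf. Cathepsins are the proteases of that compartment: Ctsb, Ctsh, Ctsl, Ctss and Ctsz are cysteine proteases, Ctsd is an aspartic protease, and Ctsa is a serine carboxypeptidase that also protects other lysosomal enzymes. LAMP1 and LAMP2 are the abundant glycoproteins of the lysosomal membrane, and CD68 is a related glycoprotein of macrophage endosomes and lysosomes. Microglia, border macrophages (those of the meninges, perivascular spaces and choroid plexus) and monocytes all use this compartment, and cathepsin S and cathepsin D transcripts are long known as abundant in microglia.

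The 10 genes lie on 9 chromosomes of the GRCm38 build, each annotated as protein coding. Ctsa (chr2:164832873-164841032, forward strand) and Ctsz (chr2:174427493-174439039, reverse strand) share chromosome 2. The other cathepsin genes are Ctsb at chr14:63122462-63145923 (forward), Ctsd at chr7:142375911-142388038 (reverse), Ctsh at chr9:90054152-90076089 (forward), Ctsl at chr13:64359337-64370890 (reverse) and Ctss at chr3:95526786-95556403 (forward). The membrane genes are Lamp1 at chr8:13159161-13175338 (forward), Lamp2 at chrX:38401357-38456454 (reverse) and Cd68 at chr11:69664213-69666153 (reverse). Ctsd, Ctsl and Ctss overlap another annotated gene on their own strand (Gm49369, Gm49230 and Hmgb1-ps5). Whether these overlapping genes were among those counted was not examined, so whether reads were shared with them is not known.

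Many lysosomal genes are known to carry a palindrome bound by TFEB and related factors near their start sites, so the promoters were searched for its core. RefSeq promoter sequences (GRCm38.p6, 250 bases before to 50 bases after the start) matched 8 of the 10 genes with 9 promoters, 2 of them of Ctsa. The 8 letters TCACGTGA were found in 2 of these 9 promoters, against 320 of 32851 promoters listed (0.974%), and the shorter CACGTG, which lies inside it, in 4 of 9 against 2349 of 32851 (7.15%). Both motifs read the same on either strand. These matches are a description of letters and not of factor binding. The shorter motif was in 4 of the 8 genes. The promoters of Ctss, Ctsz, Lamp2 and Cd68 held neither motif, nor did the Ctsa promoter at chr2:164832622-164832921. The other Ctsa promoter lies inside the annotated gene. The stretches that hold matches are shown, 120 bases each and 5′ to 3′ on the gene's own strand, with the match in capitals.
Ctsa, chr2:164833653-164833772, forward strand: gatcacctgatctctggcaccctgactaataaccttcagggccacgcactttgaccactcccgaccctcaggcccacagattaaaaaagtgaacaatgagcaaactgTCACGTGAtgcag
Ctsd, chr7:142387828-142387947, reverse strand: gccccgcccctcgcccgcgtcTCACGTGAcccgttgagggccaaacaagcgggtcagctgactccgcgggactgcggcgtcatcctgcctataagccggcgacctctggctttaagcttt
Lamp1, chr8:13159041-13159160, forward strand: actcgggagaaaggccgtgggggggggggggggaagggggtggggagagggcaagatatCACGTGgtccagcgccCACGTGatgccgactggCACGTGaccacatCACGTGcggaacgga
Ctsl, chr13:64370651-64370770, reverse strand: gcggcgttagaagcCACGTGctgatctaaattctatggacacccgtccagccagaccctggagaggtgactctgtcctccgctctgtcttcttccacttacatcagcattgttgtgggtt
In the Ctsa match shown, the shorter motif began 12 bases before the start site. A further copy of the longer motif held it 5 bases after that site. In the Ctsd match shown, the shorter motif began 98 bases before the start, and a further copy of it lay 245 bases before the start. The Lamp1 promoter held 4 copies of the shorter motif, beginning 61, 45, 28 and 15 bases before the start, and the Ctsl copy lay farther out, 236 bases before it.

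The first question was how abundant each transcript was in the sorted cells and how much it varied from library to library. Together the 10 genes made up 2.81 to 3.16% of all UMIs in each library. Since the assay counts 3′ ends, levels were not divided by gene length, and differences in capture between genes are included in them. The cysteine protease Ctss was highest, at 9578 ± 643 CPM (SD, n = 12), followed by the aspartic protease Ctsd at 7936 ± 656 CPM. Ctsb stood at 3978 ± 280 CPM and Ctsz at 2221 ± 70.4 CPM. These levels span an order: every library had less Ctsb than the lowest Ctsd library and less Ctsz than the lowest Ctsb library, while the ranges of Ctss (8308 to 10492 CPM) and Ctsd (6900 to 9239 CPM) overlapped.

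The other 6 genes lay between 515 and 1335 CPM in every library. Lamp1 averaged 1274 ± 43.8 CPM (SD, n = 12), Ctsh 1099 ± 92.9, Cd68 1067 ± 55.4 and Ctsa 1002 ± 46.9, and neighbours in this order overlapped in their ranges across libraries. Ctsl at 670 ± 86.8 CPM and Lamp2 at 550 ± 19.4 CPM were lowest, and the lowest Ctsl library (563 CPM) lay below the highest Lamp2 library (570 CPM). Variation over the 12 libraries, which differ in preparation and batch as well as mouse, was smallest for Ctsz, with a coefficient of variation of 3.17%. It was largest for Ctsl, whose libraries ran from 563 to 815 CPM. Within batches the Ctsl SD was smaller, 35.2 CPM in batch 1 and 48.8 CPM in batch 2. The aspartic and cysteine proteases with the highest levels were intermediate, at 8.26% for Ctsd and 6.71% for Ctss.

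Per cell the same order held. With every cell thinned at random to 1000 UMIs, so that depth was equal, a cell held 9.59 Ctss UMIs on average over the 12 libraries, 7.91 Ctsd, 3.95 Ctsb and 0.556 Lamp2. A Ctss UMI was found in 99.2 to 100% of thinned cells per library and a Ctsd UMI in 96.6 to 99.3%. For Lamp2 the share was 39.0 to 43.8%, and without thinning 46.3 to 58.4%, so most cells without a Lamp2 UMI cannot be called negative at this depth. As a low reference, the 12 cells with neutrophil markers (median 2143 UMIs per cell, against 1334 in microglia) gave a thinned Ctss UMI in 4 cells (33.3%), a Ctsd UMI in 4, a Lamp2 UMI in 3 (25.0%) and a Cd68 UMI in 0 of 12, which allows a share of up to 26.5% by the exact binomial 95% interval. Thus the Lamp2 share in microglia was 42.5%, inside the interval of that reference (5.49 to 57.2%), whereas the Ctss share of 99.9% was above that of its own reference (9.92 to 65.1%). By level Lamp2 was at 558 CPM over all microglia and at 92.4 CPM in the cells with neutrophil markers, on 3 UMIs.

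Among microglia of one library the abundant cathepsins spread widely. The median thinned cell held 8 to 10 Ctss UMIs depending on the library, the 10th percentile 4 to 6 and the 90th 13 to 17, with a maximum of 38. Ctsd had medians of 7 to 9 and reached 46 UMIs in 1 cell, and Ctsb had medians of 3 to 4 and reached 42. The variance was 1.80 times the mean for Ctsd, 1.76 for Ctsb and 1.75 for Ctss (medians of 12 libraries), where pure counting gives about 1, and 1.02 for Lamp2. At an equal relative spread this ratio rises with the mean count, so it cannot tell whether Lamp2 varied less between cells than the abundant proteases. Across microglia of a library, thinned Ctsb and Ctsd had the highest correlation of the 45 gene pairs, with a median Pearson r of 0.22 (0.16 to 0.36 over 12 libraries), and Ctsb and Ctsz had 0.19. These are weak values within single libraries and are given as a description only.

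**Figure D1:**
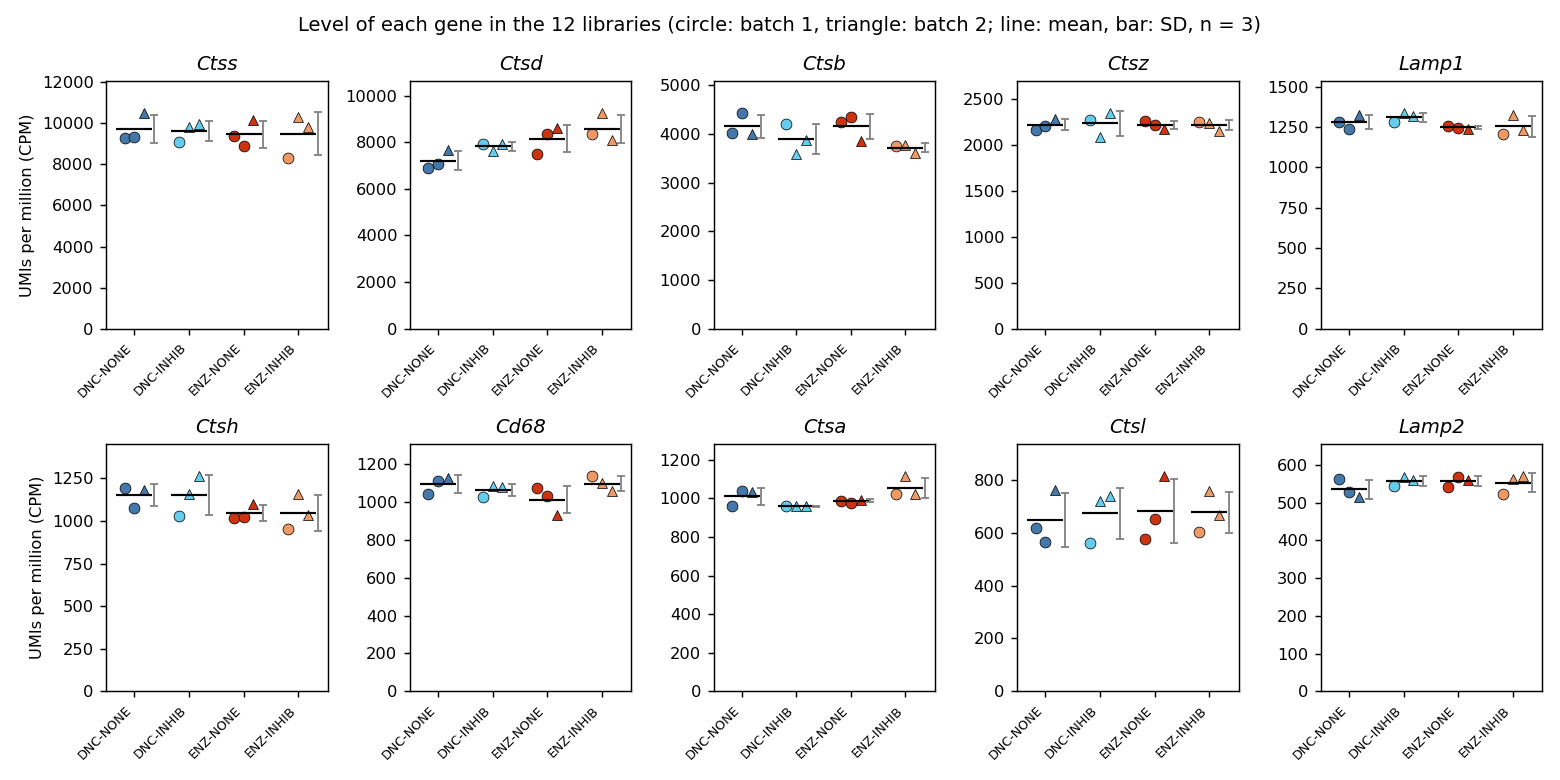
Level of each of the 10 genes in the 12 libraries, in counts-per-million units (CPM, linear axes from 0) on the y axis and the 4 preparations on the x axis, with circles for batch 1, triangles for batch 2, lines for means and bars for SD (n = 3). Ctsd has means of 7208 CPM in DNC-NONE and 8556 CPM in ENZ-INHIB, and the points of the other genes overlap between most preparations.

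The main question of the design was whether dissociation changed these transcripts. No member passed the test in any of the 6 comparisons between preparations, where a call needed an adjusted p under 0.05 (edgeR quasi-likelihood test, Benjamini-Hochberg over 9884 genes) and a log2 fold change beyond 0.58. Over all genes tested, 0.617% were called for ENZ-NONE against DNC-NONE, 0.789% for ENZ-NONE against DNC-INHIB and 0.374% for ENZ-NONE against ENZ-INHIB. The other pairs gave 0.152% for ENZ-INHIB against DNC-INHIB, 0.101% for ENZ-INHIB against DNC-NONE and 0% for DNC-NONE against DNC-INHIB. In the last pair 467 genes had an unadjusted p under 0.05, and DESeq2 called 1 gene. With background shares this low, 0 of 10 was near the background, and the intervals carry the result.

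The intervals were narrow. All 60 fitted differences (10 genes by 6 pairs) lay between -0.15 and 0.26 on the log2 scale, and all 60 of their 95% intervals lay inside the fold threshold, the farthest bound being 0.43, a 1.35-fold difference. Of the 60 intervals 3 left out 0 (unadjusted p under 0.05), and 4.72 to 10.4% of all genes had such a p in these pairs. The smallest adjusted p was 0.208. This fit had no batch term, so groups with and without inhibitors differed in batch as well. With batch as a term all 60 intervals again lay inside the fold threshold, between -0.35 and 0.34. The 6 comparisons share groups, so their values are not independent of each other. In the same libraries, 17 immediate early genes were tested, and 16 rose in ENZ-NONE against DNC-NONE, 17 against DNC-INHIB and 15 against ENZ-INHIB.

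**Figure D2:**
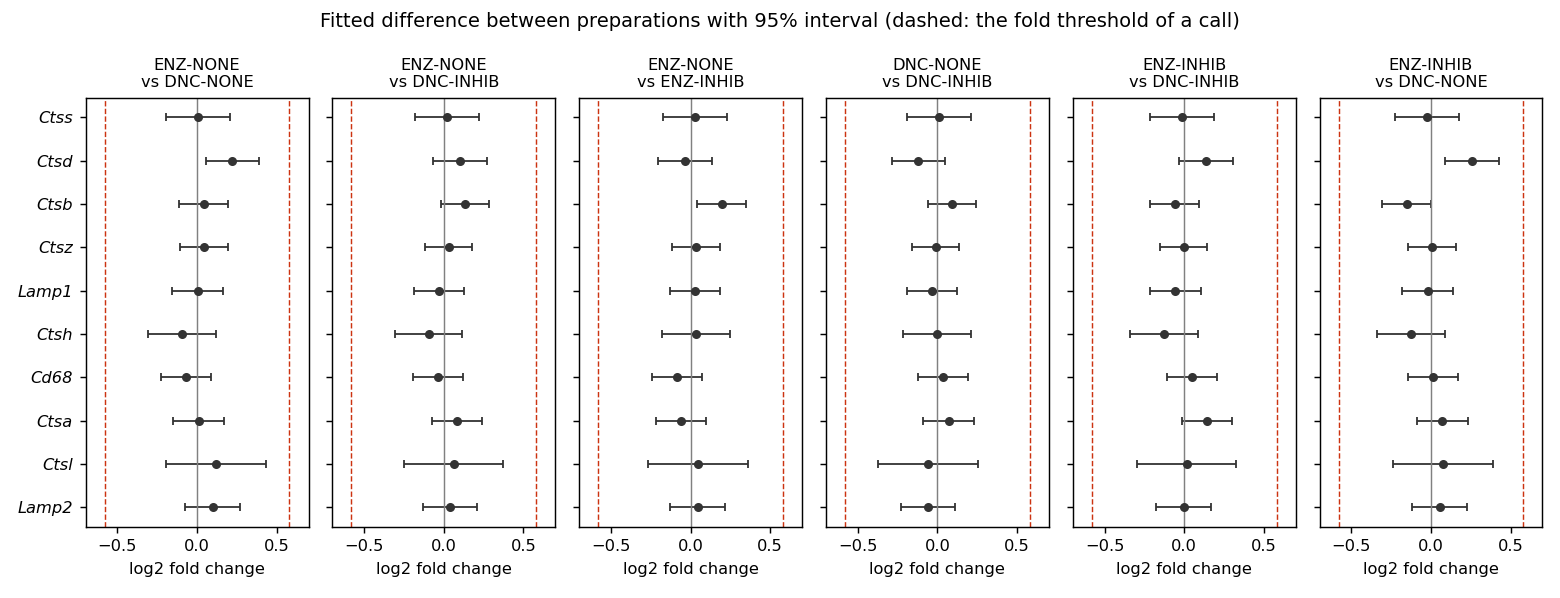
Fitted log2 fold change (x axis) of each gene (y axis) in the 6 pairs of preparations, with 95% intervals and dashed lines at the fold threshold of 0.58. Every interval lies between the dashed lines, and those that leave out 0 belong to Ctsd in 2 pairs and Ctsb in 1.

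Ctsd, the lysosomal aspartic protease, showed the largest of these differences. Its levels were 6900, 7055 and 7667 CPM for DNC-NONE, 7934, 7605 and 7932 CPM for DNC-INHIB, 7503, 8340 and 8620 CPM for ENZ-NONE, and 8331, 9239 and 8100 CPM for ENZ-INHIB. The DNC-NONE and ENZ-INHIB libraries did not overlap, while DNC-NONE and ENZ-NONE did. The difference of ENZ-INHIB from DNC-NONE was 0.26 (log2, SE 0.08) with an adjusted p of 0.208, and that of ENZ-NONE from DNC-NONE was 0.22 (SE 0.08) with an adjusted p of 0.399. Within batch 1 these differences in mean log2 CPM were 0.26 and 0.18, and within batch 2 they were 0.17 and 0.17, on 1 or 2 libraries per side. ENZ-NONE and ENZ-INHIB differed by -0.03 (95% interval -0.20 to 0.13).

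Ctsb, a cysteine protease, had its lowest mean in ENZ-INHIB (3713 CPM). Its levels were 4028, 4423 and 4007 CPM for DNC-NONE, 4207, 3595 and 3880 CPM for DNC-INHIB, 4246, 4350 and 3862 CPM for ENZ-NONE, and 3753, 3779 and 3606 CPM for ENZ-INHIB. All ENZ-NONE libraries lay above all ENZ-INHIB libraries, by 0.19 on the log2 scale (SE 0.07), yet the adjusted p was 0.81. Within batches the difference was 0.20 in batch 1 and 0.07 in batch 2. Ctsb in DNC-INHIB overlapped both enzymatic groups.

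Of the other 8 genes none had an unadjusted p under 0.05 in any pair in the fit without batch. With batch as a term, 11 of the 60 differences did, among them Ctsl, Ctss, Ctsa and Ctsh in 1 or 2 pairs each, but none was called and the smallest adjusted p was 0.100. These 11 were not set against the share of all genes in that fit, so they are a description only. Ctss differed by at most 0.03 in absolute log2 fold change in the 6 pairs, with intervals reaching -0.22 and 0.23. With batch as a term it ran from -0.10 (ENZ-INHIB against DNC-NONE) to 0.11 (ENZ-NONE against ENZ-INHIB). Cd68, often used as a stain for phagocytic microglia, was 0.07 lower in ENZ-NONE than in DNC-NONE, with a 95% interval of -0.23 to 0.09. Lamp1 differed there by 0.00 (-0.15 to 0.16). The widest intervals were those of Ctsl (-0.19 to 0.43 in that pair), the most variable gene between libraries.

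Whether the inhibitors acted differently with the 2 methods was asked with the interaction of inhibitors and method. None of the 10 genes was called, against 0.172% of all genes, and none had an unadjusted p under 0.05. The interaction ran from -0.13 for Ctsa to 0.10 for Ctsl, and the widest interval, that of Ctsl, was -0.34 to 0.55.

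A difference by batch was examined after the levels had been seen. Ctsl, a cysteine protease, was at 617 and 565 CPM in the batch 1 libraries of DNC-NONE and 761 in the batch 2 library, and in DNC-INHIB at 563 in batch 1 and 719 and 738 in batch 2. In ENZ-NONE it was at 577 and 653 against 815 CPM, and in ENZ-INHIB at 605 against 759 and 668. Every batch 2 library was above every batch 1 library. With the 4 preparations in the fit, batch 2 exceeded batch 1 by 0.39 (log2, SE 0.05, 95% interval 0.27 to 0.50, adjusted p = 0.000519).

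Ctss followed the same split, from 8308 to 9365 CPM in batch 1 and from 9828 to 10492 CPM in batch 2. Its batch difference was 0.22 (SE 0.04, adjusted p = 0.00156). These 2 genes had an adjusted p under 0.05, as did 2.87% of all genes tested, but neither passed the fold threshold, and 0 of 10 were called, against 0.253% of all genes. Ctsh came next at 0.19 (SE 0.05, adjusted p = 0.0535), with Ctsd at 0.11 (adjusted p = 0.208) and Lamp1 at 0.09 (adjusted p = 0.322). Ctsb was 0.07 lower in batch 2, with a 95% interval of -0.15 to 0.02. In other lists the median batch difference was 0.63 over 17 immediate early genes (1 called) and 0.35 over 6 monocyte markers (1 called). It was 0.24 over 8 border markers (0 called) and 0.02 over 10 microglial markers (0 called). The part of these lists in the Ctsl and Ctss differences was not tested.

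**Figure D3:**
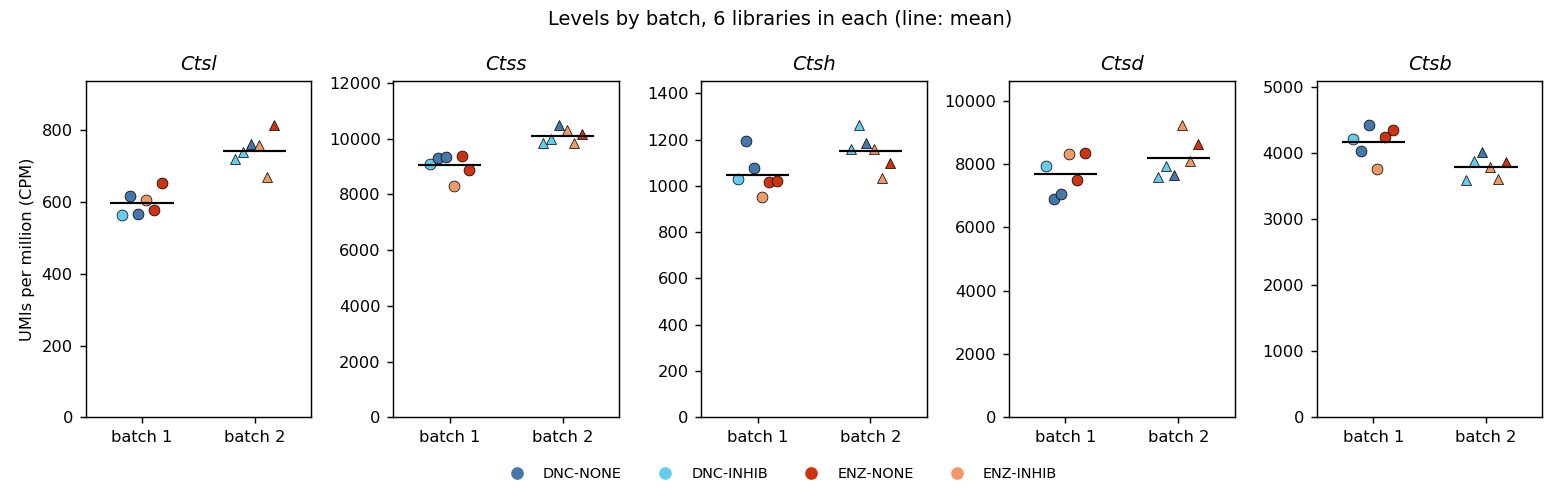
Levels in counts-per-million units (CPM, y axis from 0) of Ctsl, Ctss, Ctsh, Ctsd and Ctsb by batch (x axis), 6 libraries in each, coloured by preparation, with a line at each mean. For Ctsl the batch 1 points lie at 563 to 653 CPM and the batch 2 points at 668 to 815 CPM, without overlap.

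The last comparison within preparations set microglia that carried immediate early genes apart from those that did not. In ENZ-NONE, 40.9, 38.8 and 65.1% of microglia had at least 3 of 18 immediate early or stress genes after thinning. These cells were compared with the microglia of the same library that had 0 of the 18, in 632 against 250, 427 against 190 and 1100 against 108 cells. No member was called, against 0.816% of 5885 genes tested, and 2 of 10 had an unadjusted p under 0.05, as did 8.94% of the 5885. Cd68 was lower in the carrying cells in 3 of 3 libraries, at 1052 against 1145, 1022 against 1165 and 904 against 1123 CPM, a difference of -0.18 (SE 0.07, adjusted p = 0.357). Ctsh was higher in 3 of 3, by 0.16 (SE 0.07, adjusted p = 0.49). Ctsd differed by 0.02 (95% interval -0.05 to 0.09) and Ctss by -0.03 (-0.10 to 0.04), so the 2 most abundant transcripts were level between the cells to within these bounds. Median UMIs per cell were 1326 against 1328, 1309 against 1263 and 1485 against 1496.

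**Figure D4:**
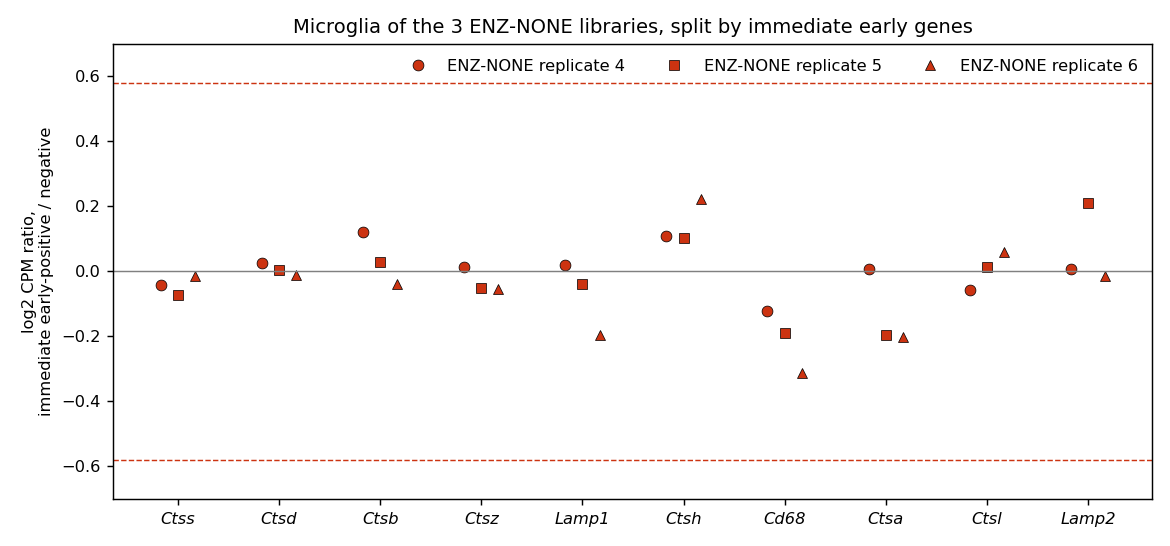
Log2 ratio of CPM (y axis) between microglia with at least 3 immediate early genes and microglia with 0, for each gene (x axis) in the 3 ENZ-NONE libraries, with 1 symbol per library. All 3 Cd68 points lie below 0 (-0.12, -0.19 and -0.31), and the Ctsd points lie near 0.

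The cells were then divided by marker genes, since border macrophages and monocytes pass the same sort. A cell was put in a class when it had at least 3 of that class's 10 marker genes and most marker UMIs there. This gave 18386 microglia, 137 border macrophages (by Mrc1, Pf4, Lyve1, Ms4a7 and others), 107 monocytes (by Ccr2, Ly6c2, Plac8 and others) and 158 unassigned cells. The gate was met with exactly 3 genes by 58 microglia, 25 border macrophages and 18 monocytes. The border markers summed to 8337 CPM in border macrophages and 57.5 CPM in microglia, and the monocyte markers to 9829 CPM in monocytes and 16.6 CPM in microglia. The microglial markers summed to 23388 CPM in microglia, 2992 CPM in border macrophages (12.8% of that level) and 293 CPM in monocytes (1.25%). How much of the border values below comes from microglial RNA in these cells was not tested.

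Border macrophages had a different mix of cathepsins. In the 10 libraries with at least 5 such cells (129 cells), 5 of the 10 genes were called against microglia of the same libraries, as were 17.2% of 5777 genes tested. Ctsb was the member that was higher, by 0.70 (log2, SE 0.10, adjusted p = 4.95e-11), and Ctsd, Ctsl, Ctss and Ctsz were lower. Over all genes tested the median difference was -0.35, and over the 10 members -0.17, so the values are to be read relative to a general shift. The calls were 323 higher and 669 lower. With TMM over all genes tested they were 222 and 1156 around a median of -0.59, and there Ctsb was at 0.42, under the fold threshold with an adjusted p of 0.0016.

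Ctsb in border macrophages ran from 4730 to 9035 CPM over 10 libraries (median 5791), all above the 12 microglial values of 3613 to 4442 CPM. The mean was 6441 ± 1703 CPM (SD, n = 10), 161% of the microglial mean. The highest libraries were ENZ-NONE replicate 4 (9035 CPM), DNC-NONE replicate 2 (8859) and DNC-NONE replicate 1 (8633). Of the 2 libraries with 4 border macrophages each, left out of the fit, DNC-INHIB replicate 4 was at 5671 CPM and ENZ-NONE replicate 5 at 4170 CPM, which lies inside the microglial range.

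Ctsd went down most. It ran from 623 to 2628 CPM in border macrophages (median 1855) and from 7229 to 9377 CPM in microglia, a difference of -2.17 (SE 0.11, adjusted p = 8.07e-82), or 21.5% of the microglial mean. Ctsl fell by 1.70 (SE 0.22, adjusted p = 2.39e-13), from 689 ± 89.5 CPM (SD, n = 12) in microglia to 186 ± 139 (SD, n = 10), with 45 UMIs in all 129 cells. Ctss fell by 1.05 (SE 0.10, adjusted p = 2.73e-25) to 4739 ± 900 CPM and Ctsz by 0.96 (SE 0.13, adjusted p = 9.96e-12) to 1119 ± 221 CPM. For all 4 genes the border and microglial libraries did not overlap. The ratio of Ctsb to Ctsd was thus reversed between these cells, Ctsd being above Ctsb in every microglial library and Ctsb above Ctsd in every border one.

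The 3 membrane glycoproteins were not called. In border macrophages Lamp1 was at 1341 ± 354 CPM (SD, n = 10), a difference of 0.08 (95% interval -0.18 to 0.34). Lamp2 was at 593 ± 194 CPM, a difference of 0.15 (-0.19 to 0.48). Cd68 was at 1064 ± 312 CPM, a difference of -0.00 (-0.28 to 0.28), and the exopeptidase Ctsh at 1115 ± 198 CPM, a difference of 0.01 (-0.27 to 0.28). With the scaling used, a change past the fold threshold lies outside the interval for these 4 genes. With TMM over all genes tested or TMMwsp the values of all 4 turned negative without being called. Under alternatives that kept all libraries, Cd68 went as low as -0.30 and Ctsh as low as -0.29. Whether those intervals stay inside the threshold was not examined. Ctsa, at 774 ± 250 CPM, differed by -0.33 (-0.63 to -0.04, adjusted p = 0.112), and with TMM over all genes tested it was called lower at -0.59 (adjusted p = 0.00212).

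Monocytes had less of all of them. In the 7 libraries with at least 5 monocytes (92 cells) all 10 genes were called lower than in microglia, as 49% of 5958 genes tested were called in either direction, 476 higher and 2446 lower. The median difference was -0.89 over all genes and -2.00 over the members. Scaling by total UMIs moved the median of all genes to -0.31 and the calls to 811 higher and 1260 lower, and then 7 of the 10 members were called. Under that scaling Ctsh was at -0.51 (adjusted p = 0.00726), Lamp2 at -0.53 (adjusted p = 0.033) and Lamp1 at -0.30 (adjusted p = 0.118).

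The fitted differences of monocytes from microglia ran from -0.88 for Lamp1 to -4.75 for Ctsd. These use TMM factors, while the CPM values are scaled to total UMIs, so the scales do not match. Lamp1 in monocytes was at 84.3% of the microglial mean CPM, against a fitted -0.88, or -0.30 in the fit scaled by total UMIs. Ctsd was at 183 to 960 CPM in the 7 libraries (mean 424 ± 272, SD), which is 5.19% of the microglial mean CPM. Its fitted difference was -4.75 (SE 0.15, adjusted p = 7.78e-208). Ctsl had 9 UMIs in 92 cells and none in 3 of the 7 libraries, 6.30% of the microglial mean, with a fitted difference of -4.54 (SE 0.32). Ctss stayed the most abundant member, at 3043 ± 438 CPM (-2.31, SE 0.11), ahead of Ctsb at 1360 ± 509 CPM (-2.21, SE 0.14) and Lamp1 at 1085 ± 235 CPM (-0.88, SE 0.15). Ctsa differed by -2.13 (SE 0.19) and Ctsz by -1.88 (SE 0.15). Cd68 was at -1.27 (SE 0.17), Lamp2 at -1.11 (SE 0.20) and Ctsh at -1.09 (SE 0.16). Monocyte and microglial libraries overlapped for Lamp1 (743 to 1344 against 1217 to 1348 CPM) and for Ctsh (588 to 1056 against 951 to 1267 CPM), and for none of the other 8 genes.

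**Figure D5:**
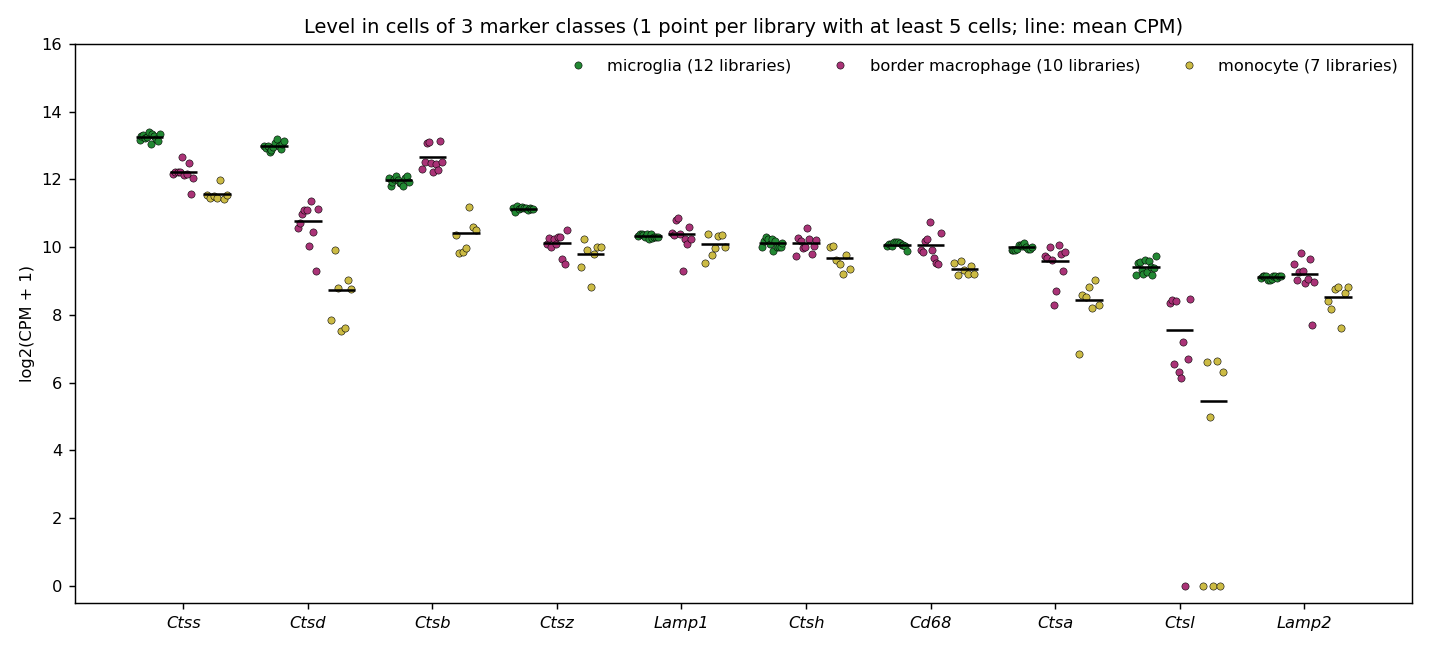
Level of each gene (x axis) as log2(CPM + 1) (y axis) in cells of 3 marker classes, 1 point per library with at least 5 cells of the class and a line at the mean CPM. The points of the classes lie far apart for Ctsd (means 8160, 1754 and 424 CPM in microglia, border macrophages and monocytes) and close together for Lamp1 (1287, 1341 and 1085 CPM). CPM is scaled to total UMIs here, without the TMM factors of the fits.

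Other genes of the lysosome were taken from 6 lists of 93 genes. Between preparations 77 of them were tested, and 0 were called in any of the 6 pairs, in the interaction or by batch. The smallest adjusted p over the pairs was 0.297. Between 2 and 10 of the 77 had an unadjusted p under 0.05 in a pair, against 4.72 to 10.4% of all 9884 genes. The 10 were in ENZ-INHIB against DNC-INHIB, where 8.43% of all genes had such a p. By batch 15 of the 77 had one, against 14.1% of all genes, and the smallest adjusted p there was 0.00318. In border macrophages 71 were tested, of which 4 were called higher and 14 lower than in microglia. Over all 5777 genes tested, 323 were called higher and 669 lower, 17.2% together. The cysteine protease Ctsc, which activates serine proteases of granules, was 1.63 higher (SE 0.11), the tetraspanin Cd63 1.06 higher (SE 0.13), the cystatin Cstb 1.03 higher (SE 0.25) and the cholesterol carrier Npc2 0.60 higher (SE 0.14). Among the lower genes were the secreted cathepsin inhibitor Cst3 at -2.52 (SE 0.08), the cathepsin Ctsf at -1.61 (SE 0.32) and the asparaginyl endopeptidase Lgmn, which processes cathepsins, at -1.31 (SE 0.10). None of the 14 subunits of the proton pump (V-ATPase) tested was called, and their median was -0.06, against -0.35 for all genes.

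In monocytes 2 of the 71 were called higher and 46 lower. Over all 5958 genes tested, 476 were called higher and 2446 lower, 49% together. Of 27 hydrolases and activators 22 were lower, with Lgmn at -4.13 (SE 0.15) and Hexa at -2.27 (SE 0.18), and the list's median was -1.98, against -0.89 for all genes. Cstb was higher, at 1.46 (SE 0.21), and Cst3 lower, at -4.07 (SE 0.10). Of 17 membrane proteins 11 were lower, Cd63 at -5.31 (SE 0.33) on 6 UMIs among them. Of 14 V-ATPase subunits 5 were lower, Atp6v0b at -1.44 (SE 0.17) among them, and the median was -0.12, against -0.89 for all genes. The sign of Cd63 thus differed between the border and monocyte comparisons, which share the microglia as their base.

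In microglia that carried immediate early genes, 1 of 71 of these lysosomal genes was called, a share near the 0.816% of all genes tested. It was Gnptg, a subunit of the enzyme that tags hydrolases for the lysosome, at -0.91 (SE 0.25, adjusted p = 0.0492) on 125 UMIs in the carrying cells and 58 in the others. Ctsc at 0.26 (adjusted p = 0.0483) and Cst3 at -0.22 (adjusted p = 7.58e-08) passed the adjusted p but not the fold threshold.

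The genes whose levels ran most like a member's across the 12 libraries in microglia, among 1649 genes of at least 100 CPM, were Ly86 for Ctsl (Pearson r = 0.93), Atp6v0b for Ctsb (r = 0.92) and Ran for Ctss (r = 0.90). Each is the highest of 1649 values over 12 libraries that also share batches and preparations, and it is given as a description.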

How the data were processed

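Single-cell UMI counts per gene were deposited as 1 filtered matrix per library, which the authors made with Cell Ranger 3.0.0 on GRCm38 (mm10) with Ensembl 93 genes, without normalisation, from 10X 3′ libraries. All columns mapped to the 12 labelled samples. Cells with at least 500 genes, 1000 UMIs and at most 10% mitochondrial UMIs were kept. No doublet caller was run; 118 cells that met 2 marker lists were kept and left out in an alternative. Counts were summed per library, or per library and marker class (at least 5 cells), and tested with edgeR 4.0.16 in R 4.3.3: filterByExpr, TMM, glmQLFit and glmQLFTest, with Benjamini-Hochberg adjustment over all genes tested. A gene was called at an adjusted p under 0.05 and an absolute log2 fold change over 0.58. Preparations were fitted over all 12 libraries (4 groups, no batch term). Classes were fitted with the library as a term and without the marker genes of the classes. In class fits TMM factors came from genes at 200 CPM or more, since on simulated data TMM over all genes shifted sparse sums. The simulation had the form of the border fit only, and the genes changed in it were themselves above 200 CPM. It cannot show which scaling is right for the real classes, where 17.2% (border macrophages) and 49% (monocytes) of genes were called. The scaling was chosen after seeing the data, and the batch comparison was added after the levels were seen. DESeq2 1.42.0, other scalings, no count filter, all barcodes, thinned cells, other gates, batch as a term, a replicate block and each library left out were alternatives. Thinning drew 1000 UMIs per cell without replacement. The members and lists were chosen with earlier results of these data known. Named genes were the 10 members, up to 4 called genes per lysosomal list and comparison by adjusted p, and the 3 members with the highest likeness; 1 gene that this rule names is not reported here. Intervals on shares cover counting error only. Replicates were separate mice.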

Additional observations from a re-analysis of the deposited data

Results flagged for a closer look

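In 40 groups of 6 to 10 libraries (each gene within a batch, or within a marker class of border macrophages or monocytes) the highest or lowest library was compared with its nearest neighbour, and 4 stood farther from the rest than Dixon's 95% limit allows. Chance alone puts about 1 in 20 such groups past that limit. In monocytes, Ctsd was at 960 CPM in DNC-INHIB replicate 6 (20 UMIs in 9 cells), against 518 CPM in the next of 7 libraries. Ctss was at 4021 CPM in the monocytes of DNC-NONE replicate 3 (41 UMIs in 7 cells), against 2972 CPM in the next of 7. In batch 2, Lamp2 was lowest in DNC-NONE replicate 3, at 515 CPM, against 560 CPM in the next of 6 libraries. Cd68 was lowest in ENZ-NONE replicate 6 of that batch, at 934 CPM, against 1056 CPM in the next of 6.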

How the results depend on the processing

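Over all alternatives, 1973 of 1980 fitted values of the 10 genes kept their side of the call, and no called value changed sign. Between preparations, in the interaction and by batch, 0 of the 10 genes were called under any alternative run. The number of genes called over all genes moved more. Under alternatives that kept all libraries it ranged from 53 to 203 for ENZ-NONE against DNC-NONE (61 as reported), from 66 to 209 against DNC-INHIB (78) and from 38 to 142 against ENZ-INHIB (37), each highest without the count filter. It ranged from 0 to 86 for DNC-NONE against DNC-INHIB (0), from 9 to 98 for ENZ-INHIB against DNC-INHIB (15), from 5 to 215 for ENZ-INHIB against DNC-NONE (10), from 16 to 73 for the interaction (17), from 1 with DESeq2 to 79 for batch (25) and from 25 with DESeq2 to 59 for the split by immediate early genes (48). Leaving out 1 library gave, in the same order, 40 to 90, 50 to 92, 29 to 56, 0 to 1, 2 to 23, 0 to 61, 6 to 19, 14 to 41 and 37 to 48. The interaction was lowest without DNC-INHIB replicate 5 (6), DNC-NONE replicate 2 (8) or ENZ-INHIB replicate 3 (8), and ENZ-INHIB against DNC-NONE had 0 without ENZ-INHIB replicate 1 or 2 and 61 without ENZ-NONE replicate 6. The Ctsd difference of ENZ-INHIB from DNC-NONE had adjusted p-values from 0.0248 to 0.571 and stayed under the fold threshold. Border macrophages had 5 members called under each alternative, but with TMMwsp, Ctsb was at 0.38 (not called) and Ctsa at -0.63 (called), as with TMM over all genes. Calls over all genes ran from 514 without cells that met 2 marker lists to 1473 with TMMwsp (992 as reported). Monocytes had 7 members called when scaled by total UMIs and 10 otherwise. The cause of these shifts was not tested.

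The labels give replicate numbers 4 to 6 to both ENZ-NONE and DNC-INHIB and 1 to 3 to both ENZ-INHIB and DNC-NONE. Each library was a separate mouse, so a shared number does not mark a shared animal, and the main fit did not pair them. Deviations of same-numbered libraries correlated at 0.11, -0.02 and 0.16 in the first pair and -0.08, -0.06 and 0.01 in the second. They were not adjusted for batch, and number 5 in the first pair and 2 in the second span both batches. With the replicate block 0 members were called in both pairs, Ctsd was at 0.25 in the second (adjusted p = 0.0283), and 95 and 70 genes were called over all genes, against 78 and 10. The monocyte and border values rest on few cells: Ctsl had 9 UMIs in 92 monocytes.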
